A study of Homo sapiens
Mus musculus and Homo sapiens with 12 samples.

Results

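The 6 human genes described here are 5 G protein-coupled receptors of fibroblasts and 1 enzyme that breaks down cAMP, a second messenger of some such receptors. They are the bradykinin receptors BDKRB1 and BDKRB2, the adenosine receptor ADORA2B, the oxytocin receptor OXTR, the muscarinic acetylcholine receptor CHRM2 and the cAMP phosphodiesterase PDE4C. They were chosen by name, with their values in these libraries known, out of 7203 human genes covered by at least 1 library. Their levels and differences are therefore given as a description, without a test. All 6 passed the filter on low values in every comparison.

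The series measured polyA RNA in fusions of D3 mouse embryonic stem cells with MRC5 cells, a human lung fibroblast line. A heterokaryon is a fused cell that holds the nuclei of both parents side by side, without nuclear fusion or further division, so its human transcripts report on a fibroblast nucleus in a shared cytoplasm. Heterokaryons were sorted by flow cytometry and sampled at day 1, day 2 and day 3, with 2 libraries a day. The controls were 2 libraries of unfused stem cells and fibroblasts grown together (co-culture), 3 libraries of unfused fibroblasts, and 1 library of homokaryons, which are fibroblasts fused with each other and for which the labels give no day. The labels name no allele, drug or other agent for any group. In co-culture the cells kept separate membranes, and their RNA was taken as 1 mixed harvest of both species. The labels do not say whether replicates came from separate cultures, so their spread may be technical.

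Of the 12 tables, 11 could be used. The table of unfused fibroblast replicate 3 holds no human accession, which leaves 2 libraries in that group. Levels are given in RPKM, which is reads scaled to the length of the transcript and to the size of the library, a unit inferred here from the values and not stated by the labels. Depth was not given. If the smallest step between low values stands for 1 read, the heterokaryon libraries were scaled to totals of 1950000 to 5020000 reads. The co-cultures were then scaled to 2290000 and 2380000, the homokaryon library to 8990000 and the fibroblasts to 13200000 and 15400000. Whether these totals count human reads alone or those of both species is not stated. Read numbers below rest on the assumption that the step is 1 read. No table holds a value of 0. A transcript that a table leaves out before its last accession was taken as 0, and every 0 given below is such a filled value. The fibroblast label held against its markers: the summed level of the 10 fibroblast markers covered in all mixed libraries was 7513 to 7558 RPKM in co-culture, 5368 to 8744 in heterokaryons and 17535 in the homokaryon library. The 4 covered epithelial markers summed to 5.94 to 20.3 RPKM in co-culture and 109 to 595 in heterokaryons. Their sum was thus higher after fusion, as ADORA2B and PDE4C were, whereas BDKRB1, BDKRB2 and CHRM2 were lower than in co-culture. Single markers were uneven, with KRT8 at 0 in day 2 replicate 1 and 233 in replicate 2. The 4 covered smooth muscle markers summed to 1094 to 1122 RPKM in co-culture, 509 to 696 on day 1, 668 to 720 on day 2 and 1217 to 2435 on day 3. This sum was below co-culture on day 1, as BDKRB1 was, but above it on day 3, where BDKRB1 stayed lower. TAGLN made up most of it, at 985 and 977 RPKM in co-culture and 574 and 350 on day 1. CNN1 was also lower on day 1. In contrast, ACTA2 (92.1 and 107 against 66.0 and 73.9 in co-culture) and DES (17.5 and 33.6 against 0.972 and 0) were higher on day 1. The 5 endothelial markers summed to 6.29 to 7.22 RPKM in co-culture and 1.29 to 5.44 in heterokaryons. TEK made up most of the co-culture sum, at 6.55 and 5.78 RPKM, and had 1.03 to 3.49 in heterokaryons. PECAM1, CDH5 and KDR were at 0 in co-culture and at 0.480, 1.71 and 0.454 at most in heterokaryons. VWF had 0.672 and 0.508 in co-culture and 0 to 1.71 in heterokaryons. The part of these 3 classes in the results was not tested. In bulk RNA, fewer cells of a kind and less RNA per cell cannot be told apart.

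G protein-coupled receptors cross the membrane in a bundle of helices and pass a signal to a G protein inside. Receptors that use Gq, such as both bradykinin receptors and the oxytocin receptor, release calcium. Those that use Gs, such as ADORA2B, make adenylyl cyclase produce cAMP, and those that use Gi, such as CHRM2, hold the cyclase back. PDE4C belongs to the PDE4 family, which hydrolyses cAMP. In fibroblasts, kinins and cAMP are known to act on contraction, cytokine release and matrix production.

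The 5 receptors share the motif at the inner end of the third helix that contacts the G protein. The genes were chosen as such receptors, so sharing it is not independent of the choice, and its codons are shown only as a description. Each line gives 33 bases of coding sequence, 5′ to 3′, with the 9 bases of the motif in capitals, read from the transcript set of GENCODE release 29.
BDKRB1: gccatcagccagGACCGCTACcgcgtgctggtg
BDKRB2: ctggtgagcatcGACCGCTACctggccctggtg
ADORA2B: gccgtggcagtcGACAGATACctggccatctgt
OXTR: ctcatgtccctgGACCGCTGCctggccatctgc
CHRM2: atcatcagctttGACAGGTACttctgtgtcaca
The search was for 3 successive codons, in frame, for aspartate or glutamate, then arginine, then tyrosine or cysteine. Each of the 5 coding sequences holds it 1 time. It starts at residue 134 of 353 in BDKRB1, 154 of 391 in BDKRB2, 102 of 332 in ADORA2B, 136 of 389 in OXTR and 120 of 466 in CHRM2. The same search matched in 16.2% of 19510 human coding sequences, so the match alone does not mark a receptor. BDKRB1 and BDKRB2, which lie next to each other on chromosome 14, had identical motif codons and were the most alike pair, with 38.5% of 351 aligned residues the same. The other 9 pairs of receptors shared 25.2% to 31.1%.

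The levels of the 6 genes separated into those lower and those higher in heterokaryons than in co-culture, as the plot of levels by library shows. BDKRB1, BDKRB2 and CHRM2 were lower on every day in both libraries. ADORA2B and PDE4C were higher on every day in both libraries, and OXTR was higher in both libraries on day 2 and day 3. The libraries of heterokaryon and co-culture did not overlap for 5 of the 6 genes on day 1 and for 6 of 6 on day 2 and on day 3. Among all genes tested, the share without overlap was 54.2% on day 1, 60.9% on day 2 and 46.9% on day 3.

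**Figure D1:**
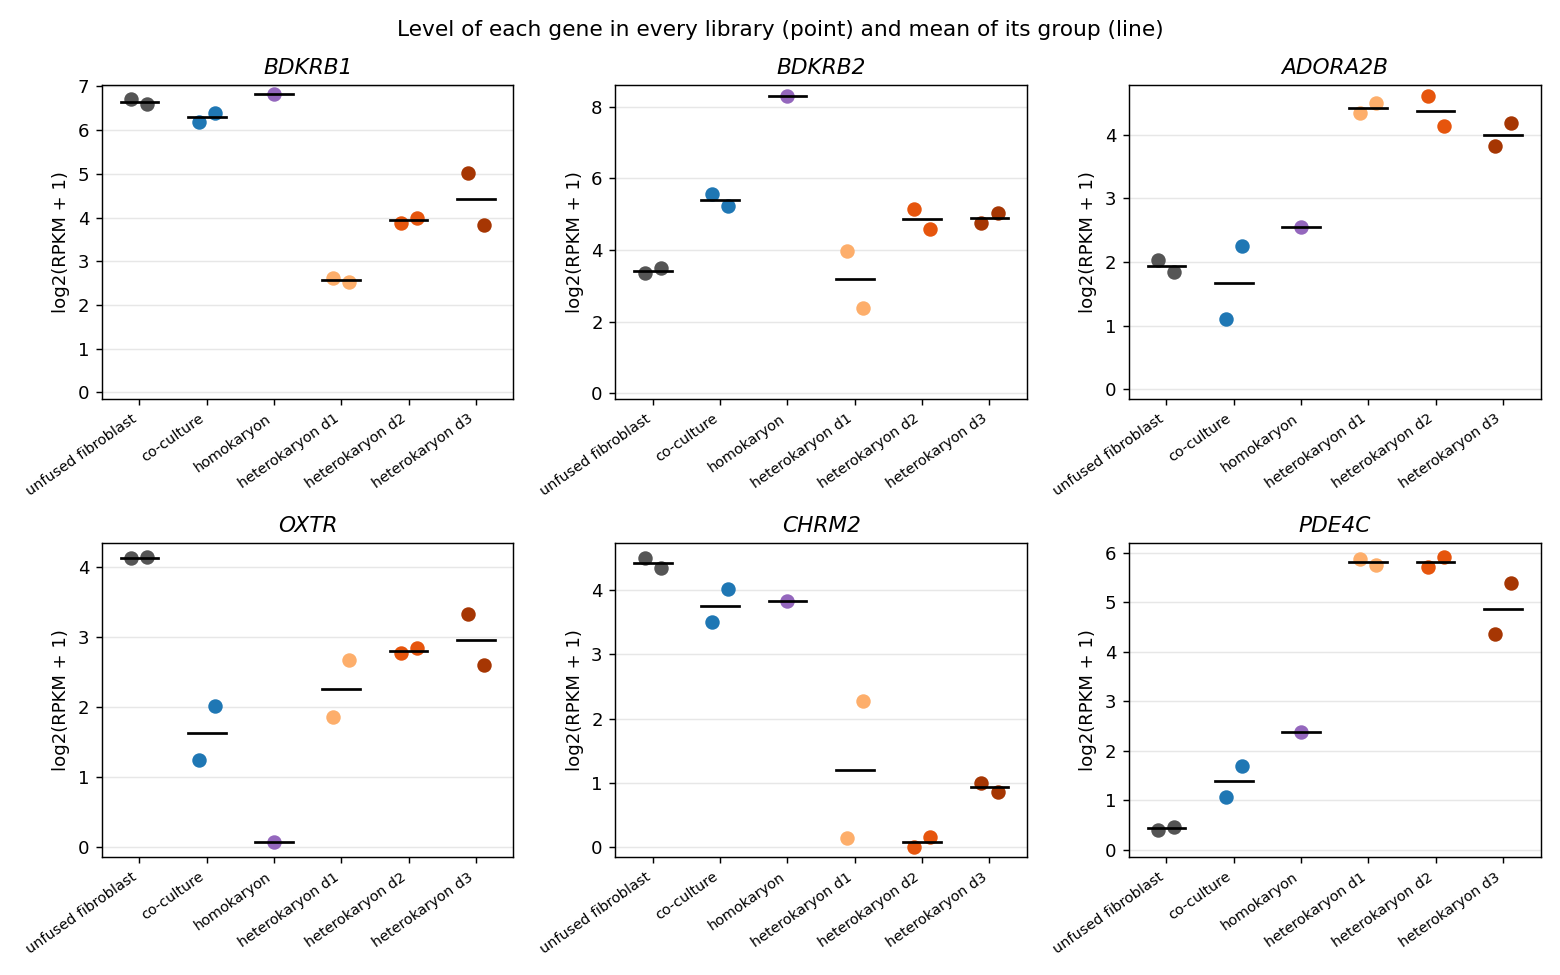
Each panel plots 1 gene, with log2(RPKM + 1) on the vertical axis and the 6 groups on the horizontal axis. Points are single libraries and lines are group means. PDE4C stood at 19.4 RPKM or more in all 6 heterokaryon libraries and at 4.23 or less in the other 5, whereas CHRM2 stood at 3.81 or less in the heterokaryons and at 10.3 or more elsewhere.

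BDKRB1 encodes the B1 receptor, which binds kinins that have lost their last arginine and is known to be induced by inflammation and injury. Its level was 104 and 95.3 RPKM in unfused fibroblasts, 72.1 and 83.3 in co-culture and 112 in the homokaryon library. It was 5.11 and 4.78 on day 1 after fusion with stem cells, 13.6 and 15 on day 2, and 31.4 and 13.1 on day 3. Every heterokaryon library was below every other library. On day 1 the mean of 4.95 ± 0.232 (SD, n = 2) was 15.7-fold below the co-culture mean of 77.7 ± 7.90 (SD, n = 2), a difference of -3.72 on the log2(RPKM + 1) scale. The difference was -2.36 on day 2 and -1.88 on day 3. The day 2 libraries lay above those of day 1 without overlap, while those of day 3 (22.3 ± 12.9, SD, n = 2) spanned the range of day 2 and differed widely from each other. About 31.4 and 15.7 reads lie behind the day 1 values, against 279 and 335 in co-culture.

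BDKRB2 encodes the B2 receptor for intact bradykinin, which is the constitutive form in most tissues. It was at 9.29 and 10.2 RPKM in unfused fibroblasts, 46.6 and 36.7 in co-culture and 316 in the homokaryon library. Heterokaryons had 14.8 and 4.21 on day 1, 34.4 and 23.2 on day 2, and 26.0 and 31.5 on day 3. The homokaryon value was the highest, the co-cultures followed, and the day 1 libraries fell on both sides of the fibroblast values. Against co-culture the log2 difference was -2.22 on day 1, -0.53 on day 2 and -0.51 on day 3. On day 1 it was -3.02 without day 1 replicate 1 and -1.42 without replicate 2. On day 2 it was -0.81 without day 2 replicate 1 and -0.26 without replicate 2. Against unfused fibroblasts the direction was the opposite on day 2 and day 3, at 1.45 and 1.46, so whether this gene counts as lower or higher after fusion depends on the control.

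The ratio of the 2 bradykinin receptors, both on the per length scale, changed between groups. BDKRB1 exceeded BDKRB2 by 11.2-fold and 9.32-fold in the fibroblast libraries and by 1.55-fold and 2.27-fold in co-culture. In the homokaryon library BDKRB2 exceeded BDKRB1 by 2.83-fold. On day 2 after fusion BDKRB2 led in both libraries, by 2.54-fold and 1.55-fold. On day 1 it led by 2.90-fold in replicate 1 but stood at 0.880 of BDKRB1 in replicate 2, and on day 3 it stood at 0.828 in replicate 1 and led by 2.40-fold in replicate 2. The plot of the 2 receptors shows this as a position above or below the line of equal levels. Some sequence is shared with another gene model that spans both loci: 20.0% of the 50-base windows of BDKRB1 and 8.57% of those of BDKRB2 also occur in AL355102.2, and the way such reads were divided between the models is not stated.

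**Figure D2:**
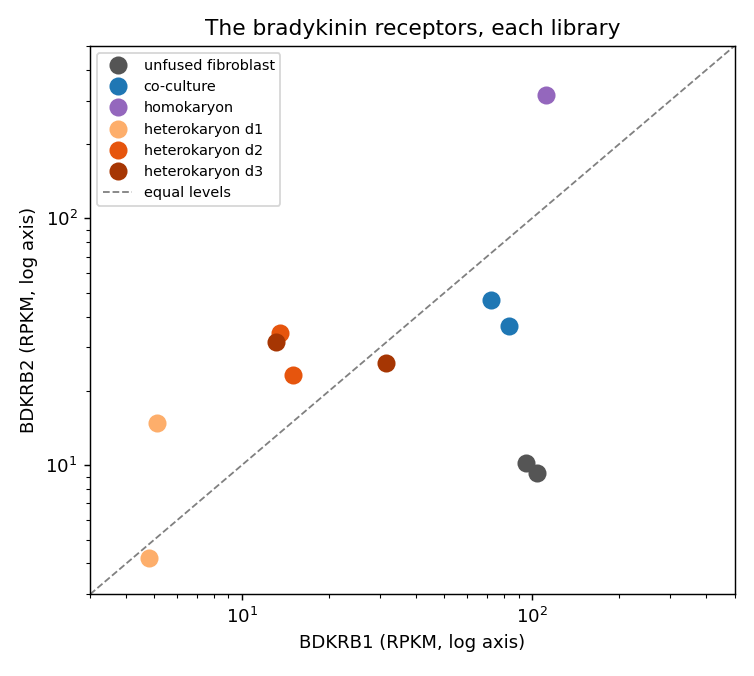
BDKRB2 against BDKRB1, both in RPKM on log axes, with 1 point per library and a dashed line of equal levels. The fibroblast and co-culture libraries lie below the line, the homokaryon library lies above it at 316 against 112, and the heterokaryons lie to the left, at BDKRB1 levels of 4.78 to 31.4.

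ADORA2B encodes the low affinity adenosine receptor, which answers to the high adenosine of stressed or damaged tissue. Its level was 3.10 and 2.6 RPKM in unfused fibroblasts, 1.15 and 3.76 in co-culture and 4.86 in the homokaryon library. Heterokaryons had 19.2 and 21.7 on day 1, 23.4 and 16.6 on day 2, and 13.1 and 17.1 on day 3. All 6 heterokaryon libraries were above all 5 others, and the 3 days overlapped between neighbours in the order of their means. The day 1 mean of 20.5 ± 1.82 was 8.34-fold above the co-culture mean of 2.45 ± 1.84 (SD, n = 2 each), and the log2 differences from co-culture were 2.74, 2.70 and 2.32 on days 1, 2 and 3. The 2 co-culture values rest on about 4.57 and 15.5 reads, so the size of this difference is less certain than its direction. Leaving out 1 library moved it between 2.17 and 3.32 on day 1. Co-culture and unfused fibroblasts overlapped, and the log2 difference of -0.27 between them became 0.31 without co-culture replicate 1.

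The other adenosine receptors were low. ADORA1 was at 0.208 to 5.83 RPKM over the 11 libraries and ADORA2A at 0 to 5.76, and ADORA3 was unlisted, and so taken as 0, in all 11. ADORA2A had 1.80 to 5.76 RPKM in the 6 heterokaryon libraries and 1.17 or less in the others. ADORA2B was the highest of the 4 adenosine receptors in each heterokaryon library.

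OXTR encodes the oxytocin receptor, best known from uterine muscle and breast. It was at 16.5 and 16.6 RPKM in unfused fibroblasts, 1.37 and 3.02 in co-culture and 0.05 in the homokaryon library. Heterokaryons had 2.6 and 5.34 on day 1, 5.79 and 6.18 on day 2, and 9.01 and 5.03 on day 3. The fibroblasts were highest and the homokaryon library lowest, and the heterokaryons lay between fibroblasts and co-culture, overlapping co-culture on day 1 only. The homokaryon value amounts to about 1.96 reads, too few for a fold change. Against co-culture, the log2 difference was 0.63 on day 1, 1.18 on day 2 and 1.33 on day 3. It ranged from 0.22 to 1.04 on day 1 as each of the 4 libraries was left out, and was 0.74 on day 2 after quantile normalization. Against unfused fibroblasts, it was -1.88, -1.33 and -1.18. OXTR is thus the second gene whose direction turns with the control. Co-culture itself was 7.54-fold below unfused fibroblasts (2.20 ± 1.16 against 16.6 ± 0.0827, SD, n = 2 each). The related vasopressin receptors AVPR1B and AVPR2 were unlisted in every library and taken as 0, and AVPR1A did not exceed 0.320 RPKM.

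CHRM2 encodes the M2 muscarinic receptor, the receptor through which the vagus slows the heart. It was at 21.6 and 19.3 RPKM in unfused fibroblasts, 10.3 and 15.1 in co-culture and 13.2 in the homokaryon library. Heterokaryons had 0.107 and 3.81 on day 1, 0 and 0.121 on day 2, and 1.0 and 0.824 on day 3. All 6 were below all 5 others, and the homokaryon value lay between the co-cultures. The reads behind the low values were few, at about 1.2 and 22.9 on day 1, 0 and 1.19 on day 2, and 15.5 and 15.2 on day 3. On day 3 the mean of 0.913 ± 0.126 was 13.9-fold below the co-culture mean of 12.7 ± 3.43 (SD, n = 2 each). No fold change is given for day 2, where 1 library is at 0. The log2 differences from co-culture were -2.55, -3.67 and -2.82. With the highest single transcript in place of the sum over 8 transcripts they were -1.35, -1.64 and -1.39. The direction thus held, and the size on this scale did not. The highest single transcripts in co-culture were at 2.34 and 1.97 RPKM, so the 1 added before the log limits how large this difference can be. On day 1 the difference in the sum rests on replicates that differ from each other (-1.49 without day 1 replicate 1, -3.61 without replicate 2). The difference in the sum between day 3 and day 1 was -0.27 with both day 1 libraries and 0.79 without day 1 replicate 2. Among the other muscarinic receptors, CHRM1 was unlisted in every library and taken as 0, and CHRM3 and CHRM4 did not exceed 2.72 RPKM.

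PDE4C encodes a cAMP-specific phosphodiesterase, which ends the signal that Gs receptors start. Its level was 0.319 and 0.375 RPKM in unfused fibroblasts, 1.10 and 2.24 in co-culture and 4.23 in the homokaryon library. Heterokaryons had 57.3 and 53.0 on day 1, 51.2 and 59.5 on day 2, and 19.4 and 41.0 on day 3. The order of the groups was heterokaryons, homokaryon, co-culture and unfused fibroblasts, and none of these 4 overlapped. The mean was 33-fold above co-culture on day 1, 33.2-fold on day 2 (55.4 ± 5.87 against 1.67 ± 0.810, SD, n = 2 each) and 18.1-fold on day 3, with log2 differences of 4.43, 4.43 and 3.49. These folds rest on very low co-culture values: about 4.27 reads lie behind the transcripts of known length in replicate 1, and in replicate 2 the only transcript listed has no length here, so its reads were not estimated. The log2 difference on day 1 was 4.11 without co-culture replicate 1 and 4.74 without replicate 2. Day 1 and day 2 overlapped, and both day 3 libraries were below them. The only other PDE4 gene covered in most libraries, PDE4B, was lower in heterokaryons, at 0 to 4.51 RPKM, than in co-culture, at 7.73 and 4.90. It was at 5.78 in the homokaryon library and at 1.11 in the 1 fibroblast library that covers it. PDE4A and PDE4D were covered by 1 library only and are not compared.

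**Figure D3:**
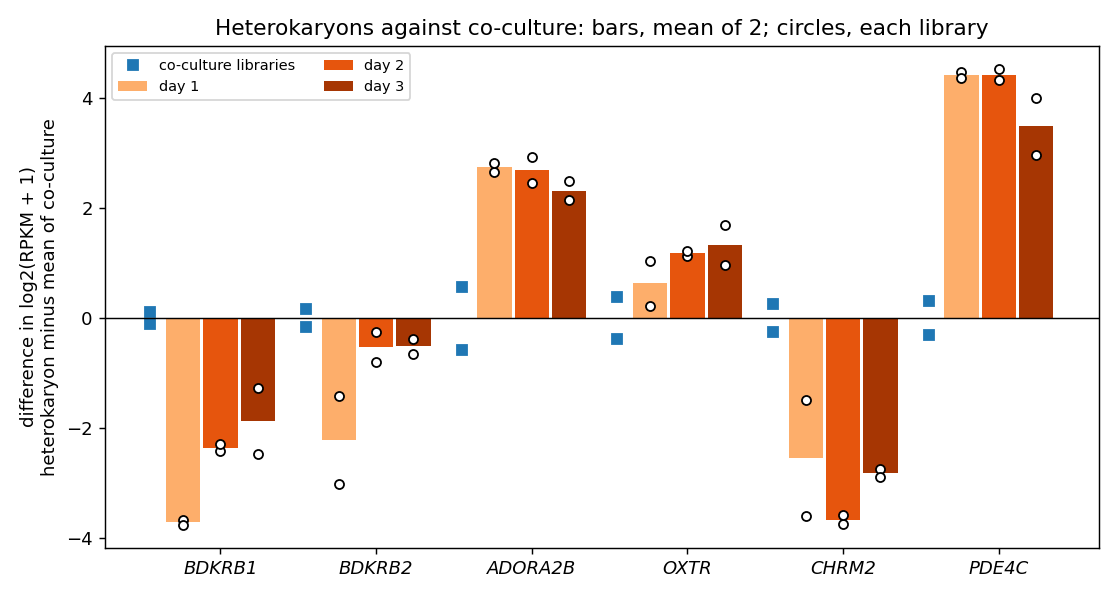
Difference in log2(RPKM + 1) between heterokaryons and the co-culture mean for each gene. Bars are means of 2 libraries for days 1, 2 and 3, circles are the single libraries, and squares are the 2 co-culture libraries around their own mean. PDE4C had the largest difference upwards, 4.43 on day 1 and day 2, and BDKRB1 on day 1 (-3.72) and CHRM2 on day 2 (-3.67) had the largest downwards, the latter as a sum over transcripts (-1.64 with the highest single transcript).

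PDE4C and CHRM2 are each measured through several coding transcripts, 3 and 8, and the division over them was not steady between replicates. In day 1 replicate 1, day 2 replicate 2 and day 3 replicate 2, a single PDE4C transcript held 57.3, 59.4 and 41.0 RPKM and the other transcripts of the gene 0.150 or less. In the 3 remaining heterokaryon libraries the same transcript held 17.9, 17.2 and 6.53 RPKM, close to each of its 2 companions. The replicates of day 1 and those of day 2 thus agreed in the sum but not in the isoform. On day 3 they differed in both, with sums of 19.4 and 41.0 RPKM. CHRM2 was spread over all 8 transcripts in fibroblast replicate 1, at 2.43 to 3.21 RPKM each, while 1 transcript held 16.4 of the 19.3 RPKM in replicate 2. Only the sums are used here. A further limit for PDE4C is that 82.8% of the 50-base windows of its transcripts also occur in the overlapping gene model AC008397.2. For ADORA2B, OXTR and CHRM2 no window occurs in another human gene. Mouse transcripts were not part of this search. Whether mouse reads were assigned to any of the genes described here, in heterokaryons or co-culture, was therefore not tested.

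**Figure D4:**
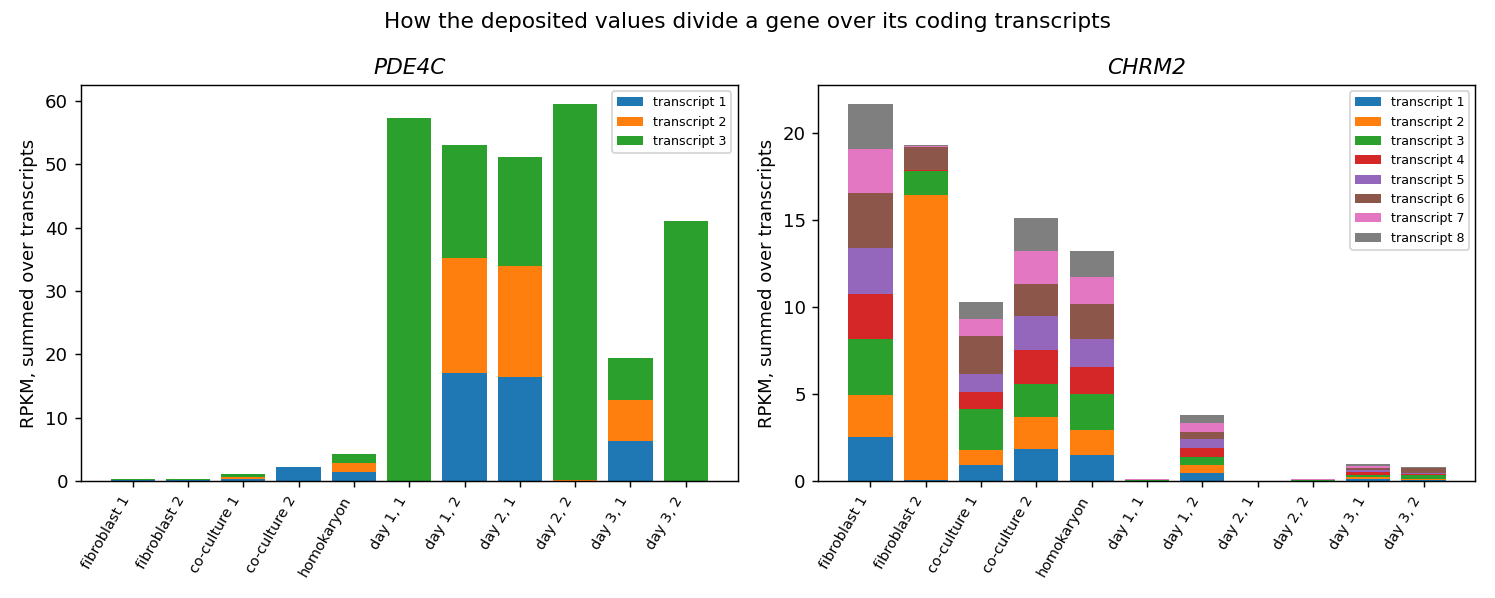
Stacked bars of RPKM per coding transcript for PDE4C (left, 3 transcripts) and CHRM2 (right, 8 transcripts) in each of the 11 libraries. For PDE4C, 3 heterokaryon libraries show a single colour and 3 show about equal parts, although the full heights within day 1 and within day 2 are alike.

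Co-culture and unfused fibroblasts also differed, without any fusion. The libraries did not overlap for 5 of the 6 genes, against 53.4% of all genes tested. BDKRB2 was higher in co-culture (log2 difference 1.98), as was PDE4C (0.95), whereas OXTR (-2.51), CHRM2 (-0.67) and BDKRB1 (-0.36) were lower. For CHRM2 this was -1.44 with the highest single transcript and -0.41 without co-culture replicate 1. Co-culture RNA comes from dishes that also hold mouse cells, so contact with stem cells and the assignment of reads to a species cannot be told apart in this pair. Between day 1 and day 3 after fusion, 4 of the 6 genes did not overlap, against 40.7% of all genes. BDKRB1 and BDKRB2 were higher on day 3, by 1.85 and 1.71 on the log2 scale, and ADORA2B and PDE4C were lower, by values of -0.43 and -0.94. The difference was 0.90 for BDKRB2 without day 1 replicate 2, and -0.24 for ADORA2B and -0.42 for PDE4C without day 3 replicate 1 (-1.46 for PDE4C without day 3 replicate 2), so single libraries set its size but not its direction. For these 4 genes, day 3 lay nearer to co-culture than day 1 did.

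The rest of the signalling route was read from 9 lists of 286 genes, none of them among the 6, which were assembled by function with earlier results of these data known. Genes were compared with limma, and a gene is called here at a Benjamini-Hochberg adjusted p under 0.05 over all genes tested. On day 1, 12 of the 105 list genes tested were called, 4 higher and 8 lower than in co-culture, or 11.4%, beside 11.0% of all genes tested. On day 2 they were 8 of 76, 3 higher and 5 lower, or 10.5%, beside 10.5%. On day 3 they were 5 of 91, 2 higher and 3 lower, or 5.49%, beside 3.48%. The median log2 difference of the list genes was -0.26, 0.17 and 0.07 on the 3 days, beside 0, 0.30 and 0.07 for all genes. With co-culture replicate 1 left out, the calls among list genes came to 0, 1 and 0 on the 3 days, and with co-culture replicate 2 left out to 1 on each day. Leaving out a heterokaryon library gave 8 and 12 calls on day 1, 1 and 1 on day 2, and 1 and 8 on day 3, the 8 being without replicate 1.

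Among other receptors, 7 of 40 (17.5%) were called on day 1, 1 higher and 6 lower, beside 11.0% of all genes tested. Their median log2 difference was -0.60 beside 0 for all genes. F2R, the thrombin receptor PAR1, was at 113 and 130 in co-culture and 40.6 and 48.9 on day 1 (adjusted p from limma 0.0135). EDNRA, an endothelin receptor, was at 6.71 and 3.80 in co-culture and unlisted in both day 1 libraries, so that its call (adjusted p from limma 0.0182) rests on a filled 0. The frizzled receptor FZD1 fell from 14.4 and 16.1 RPKM to 2.82 and 2.23 (adjusted p from limma 0.0285). HTR1B and S1PR1, which the naming rule does not reach, were also among the 7. Their calls rest on a filled 0 as well, as both were unlisted in both day 1 libraries. In co-culture HTR1B had 2.69 and 2.95 RPKM and S1PR1 had 4.11 and 5.18. On day 2 and day 3, 4 of 30 (13.3%) and 4 of 36 (11.1%) receptors were called, beside 10.5% and 3.48% of all genes. Each time 1 was higher and 3 were lower, with F2R and FZD1 among the lower. The median of the receptors was -0.15 beside 0.30 for all genes on day 2, and -0.01 beside 0.07 on day 3. None of the receptors named here was called in every fit that left out 1 library of its comparison.

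**Figure D5:**
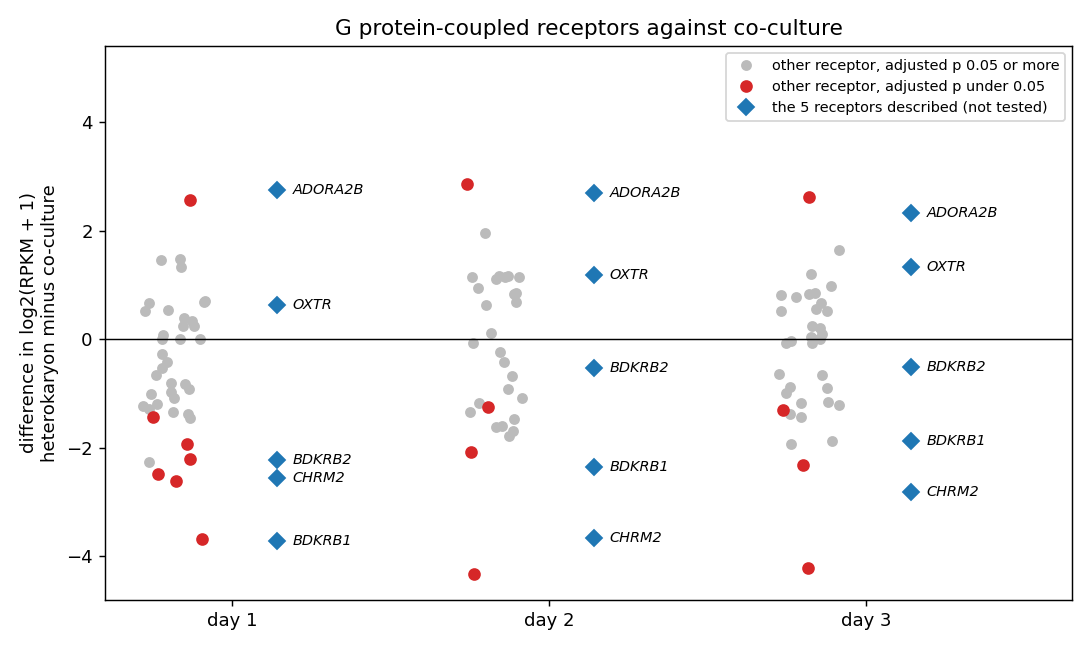
Difference in log2(RPKM + 1) from co-culture on days 1, 2 and 3 for the tested G protein-coupled receptors of the list (circles, red where called) and for the 5 receptors described (diamonds, named, not tested). On day 1, 6 of the 7 red circles lie below 0, and ADORA2B stands at 2.74.

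Genes for the steps after the receptor were few among the calls. No adenylyl cyclase, G protein subunit or member of the protein kinase A, EPAC and CREB list was called by limma on any day in the fit of all groups. These lists had 2, 13 and 6 genes tested on day 1, of which 1, 3 and 0 had an unadjusted p under 0.05. Without day 1 replicate 1, limma called 3 G protein subunits on day 1, GNAQ, GNG10 and GNG11, with adjusted p of 0.0308, 0.0278 and 0.0137. Of the phosphodiesterases, PDE9A, which is specific for cGMP, fell on day 1, from 10.9 and 19 RPKM to 2.58 and 0 (adjusted p from limma 0.0379), and PDE9A and PDE4B fell on day 2 (adjusted p from limma 0.0375 and 0.0309). ECE1, an endothelin-converting protease that also cleaves bradykinin, fell 2.02-fold on day 1 (adjusted p from limma 0.0315). RGS16, which switches G proteins off, was unlisted in both co-cultures and taken as 0 there, and had 6.15 and 7.54 RPKM on day 1 (adjusted p from limma 0.0217). ITPR3, a calcium channel opened by the product of phospholipase C, rose 3.53-fold on day 1 and on day 2 (adjusted p from limma 0.0252 and 0.0247). Each of these calls was lost in 3 or 4 of the 4 fits that left out 1 library.

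ATF3, a stress and cAMP responsive transcription factor, rose on all 3 days. It had 9.30 and 16.5 RPKM in co-culture, 55.6 and 73.9 on day 1, 136 and 136 on day 2, and 99.7 and 100 on day 3. The log2 difference on day 2 was 3.35 ± 0.33 (SE), with an adjusted p from limma of 0.00232 that stayed at 0.0365 or less with any 1 library left out. On day 1 and day 3 the adjusted p was 0.0729 and 0.0875 without co-culture replicate 1.

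Between co-culture and unfused fibroblasts, limma called 2 of 966 genes, or 0.207%, and 0 of 21 list genes, of which 3 had an unadjusted p under 0.05. ICAM1, an adhesion molecule at 6.66 and 7.24 RPKM in fibroblasts and 39.3 and 40.5 in co-culture, had an adjusted p of 0.0501, just past the threshold, and was singled out after its values were seen. Between day 3 and day 1, limma called 38 of 3014 genes, or 1.26%, and 1 of 91 list genes. That gene was INHBA, a subunit of activin, at 12.3 and 29.6 RPKM on day 1 and 97.5 and 163 on day 3 (adjusted p from limma 0.0464). The call held in 1 of the 4 fits that left out 1 library, with the largest adjusted p, 0.086, without day 1 replicate 1.

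The genes whose levels ran most like each of the 6 over the 8 heterokaryon and co-culture libraries were sought among 1643 genes of higher abundance. These correlations are descriptive and share libraries and depth. Except for BDKRB2, they follow mainly the contrast between heterokaryons and co-culture. For BDKRB2 they follow the low day 1 libraries. Its nearest genes IRF2, GALT and DLAT were lowest in day 1 replicate 2, at 0, 0 and 1.51 RPKM, and their co-culture levels overlapped those of day 2. TPM4 (Pearson r = 0.990), PCYT2 and LIF were nearest to BDKRB1, IRF2 (0.974), GALT and DLAT to BDKRB2, and DYNC1H1 (0.955), SOD2 and M6PR to OXTR. ITGB5 (0.963), MMP3 and A2M were nearest to CHRM2. RPS6KA1 came first for both ADORA2B (0.983) and PDE4C (0.988), and PDE4C was itself the third nearest to ADORA2B (0.973), followed for PDE4C by GUSB and SDC1. RPS6KA1 was at 1.23 and 3.94 RPKM in co-culture and 21.9 to 66.9 in heterokaryons. Within the 6, BDKRB1 and PDE4C were the most opposed pair (r = -0.91).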

How the data were processed

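PolyA RNA was measured in 12 samples. The authors deposited 1 value per RefSeq accession and sample, taken here as RPKM from the values; per the submitters' processing notes the genome builds were hg19 and mm10, and aligner and counter are not given in the sources used here. For unfused fibroblast replicate 3 the authors deposited a signal without a stated unit and without human accessions, which was not used. Each of the 11 other tables ends after 10000 distinct values: an unlisted accession before the end was taken as 0, one past it as not covered. Coding transcripts were summed per gene; 132 accessions were named through GENCODE and 280 genes whose accession numbers lie within 2 of an unnamed coding accession were set aside. Chromosomes come from RefSeq and coding sequence from GENCODE 29. Groups with 2 libraries entered a limma fit with trend (limma 3.58.1, R 4.3.3) on log2(value + 1). It was restricted to genes covered in both groups that reached 1 RPKM in 2 or more libraries. Up to 10 libraries shared the spread, and fewer did for genes that libraries outside the 2 groups compared do not cover. The rules on table ends, summing and genes set aside were chosen after seeing the data, and members, lists and tests were chosen with earlier results of these data known. Named genes are the 6, up to 4 called genes per list and comparison with the smallest adjusted p, and the 3 genes most correlated with each of the 6; some genes the rule names are not reported here. The fit was tested on simulated data. Alternatives were another pseudocount, no filter, upper quartile scaling, quantile normalization, fits of only 2 groups, a replicate block, the highest single transcript, and each library left out.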

Additional observations from a re-analysis of the deposited data

How the results depend on the processing

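Over 240 recomputed differences of the 6 genes, 211 moved by less than 1 standard error of the fit, 27 moved by more and kept their direction, and 2 changed sign. These were ADORA2B between co-culture and unfused fibroblasts (0.31 without co-culture replicate 1, -0.84 without co-culture replicate 2) and CHRM2 between day 3 and day 1 (0.79 without day 1 replicate 2, -1.33 without day 1 replicate 1). Counts of called genes depended far more on the fit. Fitting only the 2 groups compared gave 213 calls on day 1 (5 among list genes), 513 on day 2 (18) and 12 on day 3 (1), 104 between co-culture and unfused fibroblasts and 0 between day 3 and day 1 (0). Without a filter on low values there were 241 calls on day 1, 3 list genes on day 3, and 9 genes and 0 list genes between day 3 and day 1. A pseudocount of 0.5 gave 6 genes and 0 list genes there. Between co-culture and unfused fibroblasts, where 2 genes were called, the count was 15 with a pseudocount of 0.5, 11 without the filter, 10 after upper quartile scaling, 15 after quantile normalization, 12 with the highest single transcript and 14 with no genes set aside, the last 2 chosen after seeing the data; list genes called were 2 in each of these and with only the 2 groups fitted, in place of 0. Replicate numbers did not pair the libraries (correlations of same-numbered deviations from -0.04 to 0.08). With the replicate block, 7, 5 and 1 list genes were called on days 1, 2 and 3, 46 genes on day 3, 4 genes and 1 list gene between co-culture and unfused fibroblasts, and 0 genes and 0 list genes between day 3 and day 1. Leaving out each library in turn gave 42 to 343 calls on day 1 (0 to 12 among list genes), 28 to 46 on day 2 (1 to 1), 5 to 166 on day 3 (0 to 8), 1 to 11 between co-culture and unfused fibroblasts, and 0 to 55 (0 to 1) between day 3 and day 1. The share of calls that were higher was 58.1% on day 1 and 63.8% on day 2 as deposited, 52.7% and 52.8% after upper quartile scaling, and 49.3% and 45.1% after quantile normalization. The median difference of all genes on day 2 went from 0.30 to 0.14 and 0.02 under these scalings. The cause of these shifts was not tested. Genes or isoforms past the end of a table, and values resting on a few reads, limit what can be said.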
